A study of Caenorhabditis elegans with 2 samples.

Results

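The regions described here are places of the Caenorhabditis elegans autosomes where the eGFP-tagged transcription factor FOS-1 gave chromatin immunoprecipitation signal close to the starts of genes on both strands. A region of the pooled list of both replicates was a member when its summit, the base of highest signal, stood no more than 1000 bp upstream and 200 bp downstream of annotated 5' ends of at least 1 plus-strand and at least 1 minus-strand protein-coding gene. The pooled list holds background as well as peaks, so a place in it does not by itself show binding. Of the 3527 pooled regions, 2870 lay on autosomes, and 180 of these were members. Another 806 autosomal regions lay at promoters on 1 strand only (one-directional regions), and 1884 lay at no promoter. The 7 divergent regions on X were left out.

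The data came from 2 biological replicates of whole worms at the fourth larval stage (L4), the last before the adult moult, with both sexes pooled. Both replicates were of strain OP304, genotype unc-119(ed3) III; wgIs304, in which an inserted transgene carries the tagged fos-1 gene, so the tagged protein was present beside whatever the worm's own fos-1 gene made. There was 1 group and no other strain, stage or treatment, so no condition was compared and the values describe where signal lay. The worms were whole, so a region does not say in which tissue the signal arose. The depth of each library is unknown. The signal of a region is the score the authors' caller gave it, whose scale is not stated.

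FOS-1 is a basic leucine zipper protein related to the mammalian Fos proteins, which bind the AP-1 site as a pair with a Jun protein. In a divergent promoter a pair of genes start close together and are transcribed away from each other, and the stretch between them can carry the regulatory sites of both. In C. elegans, where genes are close together, many widely used genes are arranged in this way.

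The sequences at 7 members show what lay under the summits, in the stretch between both 5' ends, from the RefSeq ce11 reference genome. Capitals mark matches to AP-1 (TGACTCA or TGAGTCA), the GAGA motif spelled GAGAGA, the GC box (GGGCGG), the E-box (CACGTG), the octamers CTGCGTCT and GTGGAGCG, and their reverse complements. GTGGAGCG was picked after these windows had been read. The first 4 stretches are from the 4 members of highest pooled signal, then follows the promoter shared by lin-54 and rpl-12, and the last 2 hold an AP-1 site.
Y17G9B.5/rpl-20 (IV 4749961 to 4750161): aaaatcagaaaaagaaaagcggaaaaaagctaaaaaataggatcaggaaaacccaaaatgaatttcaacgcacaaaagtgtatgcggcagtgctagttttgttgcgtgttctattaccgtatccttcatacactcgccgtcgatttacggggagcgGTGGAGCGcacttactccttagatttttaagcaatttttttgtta
K11H12.8/rpl-15 (IV 654824 to 655024): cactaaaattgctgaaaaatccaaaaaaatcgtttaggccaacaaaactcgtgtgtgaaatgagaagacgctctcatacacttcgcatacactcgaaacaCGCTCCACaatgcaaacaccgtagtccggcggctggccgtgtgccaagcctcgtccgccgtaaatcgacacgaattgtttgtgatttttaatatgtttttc
set-16/drr-2 (III 13643613 to 13643813): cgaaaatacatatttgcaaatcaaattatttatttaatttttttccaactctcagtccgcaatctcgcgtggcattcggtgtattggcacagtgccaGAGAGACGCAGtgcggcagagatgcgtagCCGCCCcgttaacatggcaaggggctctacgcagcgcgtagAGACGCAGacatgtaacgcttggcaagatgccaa
tasp-1/K01G5.10 (III 10759149 to 10759306): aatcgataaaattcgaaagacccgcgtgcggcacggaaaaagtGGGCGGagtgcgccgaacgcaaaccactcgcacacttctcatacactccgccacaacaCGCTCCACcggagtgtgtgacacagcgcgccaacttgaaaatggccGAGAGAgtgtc
lin-54/rpl-12 (IV 13240652 to 13240756): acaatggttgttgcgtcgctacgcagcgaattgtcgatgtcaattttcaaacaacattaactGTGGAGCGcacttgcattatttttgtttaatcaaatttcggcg
C06B3.7/C06B3.6 (V 13909468 to 13909668): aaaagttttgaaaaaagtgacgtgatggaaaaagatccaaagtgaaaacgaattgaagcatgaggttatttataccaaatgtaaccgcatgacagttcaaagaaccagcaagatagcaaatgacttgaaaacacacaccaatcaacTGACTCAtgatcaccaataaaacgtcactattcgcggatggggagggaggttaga
rib-2/tbb-1 (III 10742558 to 10742758): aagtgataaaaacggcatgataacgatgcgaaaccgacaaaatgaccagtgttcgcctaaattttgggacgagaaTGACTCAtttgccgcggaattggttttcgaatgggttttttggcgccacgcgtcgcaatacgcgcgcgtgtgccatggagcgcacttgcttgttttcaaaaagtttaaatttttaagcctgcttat
All 7 are written 5' to 3' on the plus strand, 100 bp to each side of the summit, shortened where a gene's 5' end came first. In K11H12.8/rpl-15 and tasp-1/K01G5.10 the GTGGAGCG match was centred 4 and 5 bp from the summit, and in Y17G9B.5/rpl-20 and lin-54/rpl-12 60 and 62 bp from it. The set-16/drr-2 stretch held 2 matches to CTGCGTCT and none to AP-1, and the first of the 2 overlaps its GAGA match.

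Divergent regions were placed higher in the authors' ranking than regions at other places. The IDR set holds the regions the authors kept at a threshold of the irreproducible discovery rate (IDR), which scores whether both replicates rank a region alike, and it consists of exactly the 248 highest regions of the pooled list. It contained 35 of the 180 divergent regions (19.4%, exact 95% interval 13.9 to 26), 63 of the 806 one-directional regions (7.82%, interval 6.06 to 9.89) and 95 of the 1884 others (5.04%, interval 4.10 to 6.13). The background was 7.03% over the whole pooled list and 6.72% over its autosomal regions. The interval for the divergent regions lay above both other intervals. The intervals cover counting error only, neighbouring regions are not independent, and no test of the difference was made.

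The same order was seen when the regions of the pooled list were ranked by each replicate's list, with a smaller share of divergent regions. A member was matched to a replicate region when the summits lay within 200 bp, which was so for 167 members in replicate 1 and 164 in replicate 2. Where several lay so close, the highest of them was taken, and 1 replicate region could match more than 1 member. The 248 highest regions of replicate 1 held 23 of the 180 divergent regions (12.8%), against 7.32% of the one-directional and 5.20% of the other regions, with a background of 6.27%. The 248 highest of replicate 2 also held 23 (12.8%), against 7.07% and 4.78%, with a background of 5.92%. In both replicates the interval for the divergent regions, 8.28 to 18.6, overlapped that for the one-directional ones, and no test of the difference was made. Of replicate 2's highest 248 regions, 18 were mitochondrial, so fewer nuclear regions could be among them.

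The replicates differed in which divergent regions stood highest. Of the 180, 9 were among the 248 highest of both, 14 of replicate 1 only and 14 of replicate 2 only. Of the 35 divergent regions of the IDR set, 9 were among the 248 highest of both replicates, 11 of replicate 1 only, 9 of replicate 2 only and 6 of neither. Above the median rank of both replicate lists were 114 members (63.3%), against 57.1% of one-directional and 49.7% of other regions, with a background of 52.6%. The pooled list was made from both replicates, so a match in their long lists is partly built in.

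**Figure D1:**
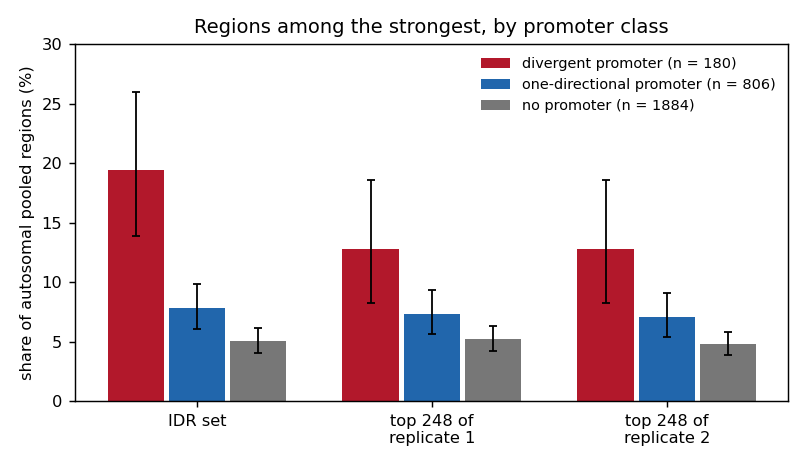
Share of autosomal pooled regions (%) found in the IDR set and among the 248 highest regions of each replicate, for divergent, one-directional and no promoter. Bars are shares and error bars exact 95% intervals for counting error; the divergent share is the highest in each, at 19.4%, 12.8% and 12.8%.

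The excess stood at the top of the list. Divergent regions made up 35 of 193 autosomal regions at ranks 1 to 248 (18.1%, interval 13 to 24.3), 13 of 190 at ranks 249 to 500 (6.84%) and 27 of 402 at ranks 501 to 1000 (6.72%). From there to rank 2000 they were 5.13%, and at ranks 2001 to 3527 4.97%. One-directional regions were 32.6%, 31.6%, 35.8%, 28.5% and 24.2% of the 5 bins, a decline that came later in the list. Regions without a promoter were 49.2% of the first bin and 70.9% of the last. Pooled signal over all 180 members ran from 16.6 to 88.6 with a median of 20.5, close to the 19.6 of one-directional and 19 of other regions. The authors' −log10 q-value was 1.46 to 2.45 at the divergent regions in the IDR set and 0.0189 to 1.38 at those outside it. Many of those outside thus had little evidence of being more than background. Within the IDR set the median signal was 36.7 at divergent, 38.7 at one-directional and 37.4 at other regions. Divergent regions were thus more frequent in the set without having higher signals inside it.

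**Figure D2:**
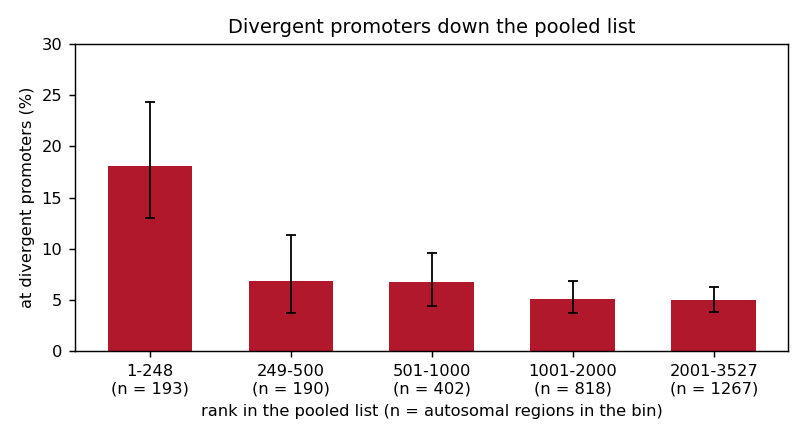
Share of the autosomal regions (%) that lay at divergent promoters in 5 bins of rank in the pooled list, rank 1 being the highest signal. Bars are shares and error bars exact 95% intervals for counting error; the share is 18.1% in the first bin and 4.97% to 6.84% in the other 4.

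Base composition moved with these shares. The 201 bp around the summit had a median GC content of 38.3% at divergent, 35.3% at one-directional and 34.3% at other regions, and of 42.8% at the divergent regions of the IDR set. Among regions at or below the autosomal median of 34.8% GC, 5 of 60 divergent regions were in the IDR set (8.33%), against 2.81% of one-directional ones. Above it the shares were 25% and 12.6%. The divergent share was the higher on both sides of the median, though at or below it the share rests on 5 regions. GC content of the classes within each side was not compared. The part of base composition in the result was not tested.

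The summits lay mostly in the stretch between both starts. In all 180 members the nearest genes faced away from each other without overlapping, and in 149 the summit lay between their 5' ends, while in 31 it lay just inside a gene. The gap between the 5' ends had a median of 594 bp (61 to 1808), and the summit was a median of 150 bp from the nearer 5' end and 452 bp from the farther. It was within 100 bp of a 5' end in 51 members and within 200 bp in 122. By annotation 147 summits were intergenic (81.7%), 14 intronic, 10 in a 5' UTR, 9 in a coding exon and 0 in a 3' UTR, where finding 0 leaves room for a share of at most 2.03%. Of the 35 in the IDR set, 33 lay between the 5' ends. Intergenic summits were 68.2% of the one-directional regions. With intergenic summits only, 22.4% of divergent and 9.27% of one-directional regions were in the IDR set.

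**Figure D3:**
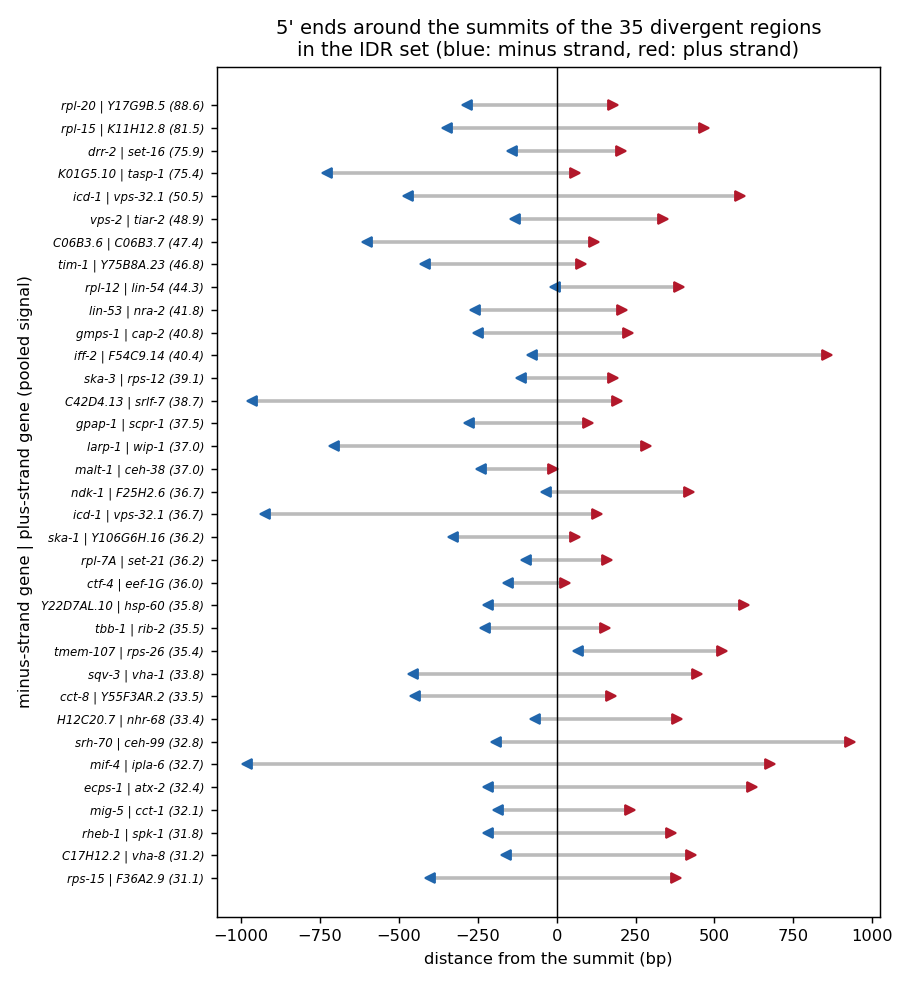
Distance in bp from the summit (0) to the 5' end of the nearest minus-strand gene (blue, pointing left) and plus-strand gene (red, pointing right) at the 35 divergent regions of the IDR set, ordered by pooled signal from 88.6 at the top to 31.1. The summit lies between both 5' ends in all but 2, malt-1/ceh-38 and tmem-107/rps-26.

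Regions lay in gaps of every length examined. Among members, 16 of 61 with a gap over 300 and up to 600 bp were in the IDR set (26.2%, interval 15.8 to 39.1), against 4 of 30 with shorter gaps (13.3%), 10 of 59 between 600 and 1000 bp (16.9%) and 5 of 30 above that (16.7%). The intervals of the 4 bins overlap. Counted over the genome, 184 of 2382 autosomal head-to-head gene pairs with 5' ends up to 2000 bp apart held a pooled region between them (7.72%) and 34 an IDR region (1.43%). The share with a pooled region was 3.27% for pairs up to 300 bp apart, 8.58% for 300 to 600 bp, 8.60% for 600 to 1000 bp and 9.34% above that. Per kb of gap all pairs held 0.104 pooled regions and 0.0190 IDR regions, against 0.0348 and 0.00234 per kb for the autosomes as a whole. The densities were 0.170 and 0.0319 up to 300 bp and 0.194 and 0.0572 at 300 to 600 bp. They were 0.112 and 0.0216 at 600 to 1000 bp and 0.0704 and 0.00684 at 1000 to 2000 bp. The low share of the shortest gaps thus went with little sequence per gap, not with a low density. Thus a small minority of head-to-head pairs held a region of the pooled list, a share that depends on where that list ends.

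All 5 autosomes contributed. Chromosome III held 42 members, I 41, IV 34, II 32 and V 31, of which 10, 6, 8, 8 and 3 were in the IDR set. The members were 5.05% of the regions on V and 7.64% of those on III, and V had the most head-to-head pairs, 663.

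Cytosolic ribosomal protein genes had the highest share with a divergent region of the lists examined. Ribosomal protein genes had 17 of 80 autosomal members with a divergent region (21.2%) and 7 with one in the IDR set, against 357 of 17242 (2.07%) and 68 (0.394%) over all autosomal protein-coding genes. Many ribosomal protein genes have a head-to-head neighbour. Of the 53 whose 5' end was placed so that a divergent region was possible, 32.1% had one, against 6.75% of 5285 such genes overall. The lists were chosen with earlier results on these data known, ribosomal proteins included, and the counts are descriptions without a test. Without regions at ribosomal protein genes, 17.1% of divergent and 7.67% of one-directional regions were in the IDR set.

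The highest member lay between rpl-20, which encodes a protein of the large ribosomal subunit, and Y17G9B.5, at IV 4749889 to 4750232. Its signal was 55.6 in replicate 1, 25.8 in replicate 2 and 88.6 in the pooled list, ranks 7, 93 and 13. The next lay between rpl-15, of the same subunit, and K11H12.8, with signals of 50.9, 23 and 81.5. Both were strong in both replicates, among the 127 highest of each list.

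The other ribosomal protein genes of the IDR set were rpl-12 (pooled signal 44.3), rps-12 (39.1), rpl-7A (36.2), rps-26 (35.4) and rps-15 (31.1). The rps-26 region, shared with tmem-107, also overlapped the snoRNA gene F39B2.14, and its summit lay in a 5' UTR. A snoRNA gene lay in 2.22% of divergent and 0.836% of all autosomal regions. The rpl-12 region had 29.2 in replicate 1 and 16.9 in replicate 2, and its summit lay 5 bp upstream of the rpl-12 5' end. The rps-15 region, the lowest divergent region of the set, had 28.2 in replicate 2 and no region within 200 bp in replicate 1. The set thus includes a region that only 1 replicate list shows at this place. At lower signal, rpl-24.1 and rps-10 shared a divergent promoter with each other (17.4), the one pair in which both genes were ribosomal.

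Translation factor genes had 5 of 43 members with a divergent region (11.6%) and 3 in the IDR set. They were drr-2, related to the initiation factor eIF4H, iff-2, the factor eIF5A, and eef-1G, the gamma subunit of elongation factor 1. The region between drr-2 and set-16, at III 13643541 to 13643884, had signals of 45.3 in replicate 1, 29.9 in replicate 2 and 75.9 in the pooled list. The iff-2 region had 23.1, 18.9 and 40.4 and the eef-1G region 18.7, 14.2 and 36.0. All 3 were found in both replicates, with the order drr-2, iff-2, eef-1G the same in each. Outside the set, erfa-3, the release factor eRF3, had 21.3 and abcf-2 20.2.

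Genes of chromatin regulation stood opposite several of these. Of 113 chromatin regulators, 10 had a divergent region (8.85%), and 4 of those regions were in the IDR set. They were set-16, a histone H3 lysine 4 methyltransferase of the MLL family (75.9), lin-54, the DNA-binding member of the DREAM repressor complex (44.3), lin-53, a histone-binding RbAp48 homologue (41.8), and set-21 (36.2), which encodes a SET-domain protein. In 3 of the 4 the partner gene was a ribosomal protein or translation factor gene, namely set-16 with drr-2, lin-54 with rpl-12 and set-21 with rpl-7A. A gene of these 2 lists was at 10 of the 35 members in the IDR set and at 21 of all 180. Outside the set, the regions of epc-1, mes-6, hmg-12, lin-35, jmjd-1.2 and swsn-6 had no such partner. The pairing thus rests on 3 regions and was not tested. A divergent region cannot be assigned to either gene of its pair, so each of these counts under both lists. The fourth, lin-53, was paired with nra-2 and had 20.4 in replicate 1 and 20.7 in replicate 2.

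The stretches between the starts of 2 pairs with a gene of protein synthesis are shown whole. That of eef-1G and ctf-4, the homologue of a yeast replication fork protein, shows the shortest gap in the IDR set, 180 bp.
set-21/rpl-7A (IV 4390591 to 4390843): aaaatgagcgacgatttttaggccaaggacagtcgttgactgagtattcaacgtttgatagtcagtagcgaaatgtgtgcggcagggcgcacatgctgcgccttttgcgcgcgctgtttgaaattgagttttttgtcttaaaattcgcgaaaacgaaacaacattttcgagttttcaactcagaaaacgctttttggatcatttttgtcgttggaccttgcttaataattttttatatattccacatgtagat
eef-1G/ctf-4 (V 10965540 to 10965718): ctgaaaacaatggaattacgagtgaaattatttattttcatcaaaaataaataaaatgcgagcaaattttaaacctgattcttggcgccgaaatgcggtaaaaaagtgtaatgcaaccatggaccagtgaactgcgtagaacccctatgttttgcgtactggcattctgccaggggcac
Neither of these held a match to the motifs marked in capitals above. The summit is base 96 of the first and base 153 of the second.

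The fourth highest region lay between tasp-1, related to the mammalian protease taspase that cleaves MLL proteins, and K01G5.10, at III 10759077 to 10759420. Its signal was 30.1 in replicate 1, 43.3 in replicate 2 and 75.4 in the pooled list. It ranked 49 in replicate 1 and 30 in replicate 2, the best rank of any divergent region there, whereas the 3 regions above it ranked higher in replicate 1 than in replicate 2.

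Vesicle traffic genes had 6 of 131 members (4.58%), 2 of them in the IDR set, and both encode subunits of the ESCRT-III membrane-cutting complex. The vps-32.1 promoter, shared with icd-1, the beta subunit of the nascent polypeptide-associated complex, held 2 regions in its gap of 1053 bp. The higher, 580 bp upstream of vps-32.1, had 16.5 in replicate 1, 32.4 in replicate 2 and 50.5 pooled. The lower, 127 bp upstream, had 16.0, 18.7 and 36.7. The vps-2 region, shared with tiar-2 (a TIA-1-like RNA-binding protein), had 16.9, 32.3 and 48.9. In replicate 2 the vps-2 region and the higher vps-32.1 region had ranks of 50 and 48, against 337 and 396 in replicate 1.

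Chaperone genes had 5 of 70 (7.14%), 3 in the IDR set. These were hsp-60, the mitochondrial chaperonin (17.7 in replicate 1, 16.7 in replicate 2, 35.8 pooled), and cct-8 and cct-1, subunits of the cytosolic chaperonin (33.5 and 32.1 pooled). The cct-1 region is shared with mig-5, a Dishevelled protein of Wnt signalling. Chaperones outside the set were pfd-1, a prefoldin subunit (22.4), and hsp-110 (20.1).

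Splicing genes had 8 of 64 (12.5%), a share close to that of translation factors, and none of their regions was in the IDR set. Of all 180 divergent regions 19.4% were in the set, so finding 0 among so few regions says little. The highest were mog-1 (22.2), prp-31 (19.3), mog-5 (18.3) and rsp-3 (18.2). The count includes phf-10, matched by the symbol pattern of the list, which is not known as a splicing gene. Nuclear pore and transport genes had 4 of 43 (9.30%), led by npp-3 (26.1), RNA polymerase and general transcription genes 5 of 74 (6.76%), proteasome genes 2 of 33 (6.06%) and respiratory chain genes 3 of 51 (5.88%), led by atp-3 (26.4). None of these was in the IDR set either, and each list had as few regions or fewer. Mitochondrial ribosomal protein genes, of which 30 of 70 had a neighbour placed for a divergent region, had 0.

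Large gene families were below the share over all genes. Chemoreceptor genes had 13 of 1276 (1.02%), F-box and MATH-BTB genes 4 of 395 (1.01%), nuclear hormone receptor genes 4 of 247 (1.62%), cuticle collagens 1 of 162 (dpy-2, 17.4) and C-type lectins 0 of 237. Among the genes with a partner placed for a divergent region, the shares were 4.42% for chemoreceptors and 8.89% for nuclear hormone receptors, against 6.75% overall. The nhr-68 region, the one nuclear hormone receptor region in the IDR set, had 8.13 in replicate 1 and 25.5 in replicate 2, ranks 7882 and 97. The set's one chemoreceptor region, at srh-70 and the homeobox gene ceh-99 (32.8), also overlapped the snoRNA gene T21B4.20.

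Lists linked to the known biology of FOS-1 are short and gave at most 1 gene each, so their shares rest on single genes. Of 25 autosomal bZIP genes, 2 had a partner placed for a divergent region and 1, zip-2, had one. Its signal was 12.6 in replicate 1, 16.0 in replicate 2 and 25.3 pooled, outside the IDR set. Of 24 MAP kinase signalling genes 1, kgb-1, a JNK-like kinase, had a divergent region, with 11.1, 15.4 and 23.3, also outside the set. The shares were 4.0% and 4.17%, against 2.07% over all genes. None of 23 anchor cell invasion genes had one, and 4 of them had a partner placed for it. In the spermatheca and ovulation list 1 of 19 genes had one (5.26%), sqv-3, a glycosyltransferase needed for chondroitin and heparan sulphate, in the IDR set at 33.8 with vha-1, a subunit of the vacuolar proton pump. The marker lists of intestine, epidermis, body wall muscle, pharynx and neurons had no gene with a divergent region, and between 1 and 5 genes of each had a partner placed for one. The germline list had 2, mex-5 and rec-8, at a single region of signal 17.

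**Figure D4:**
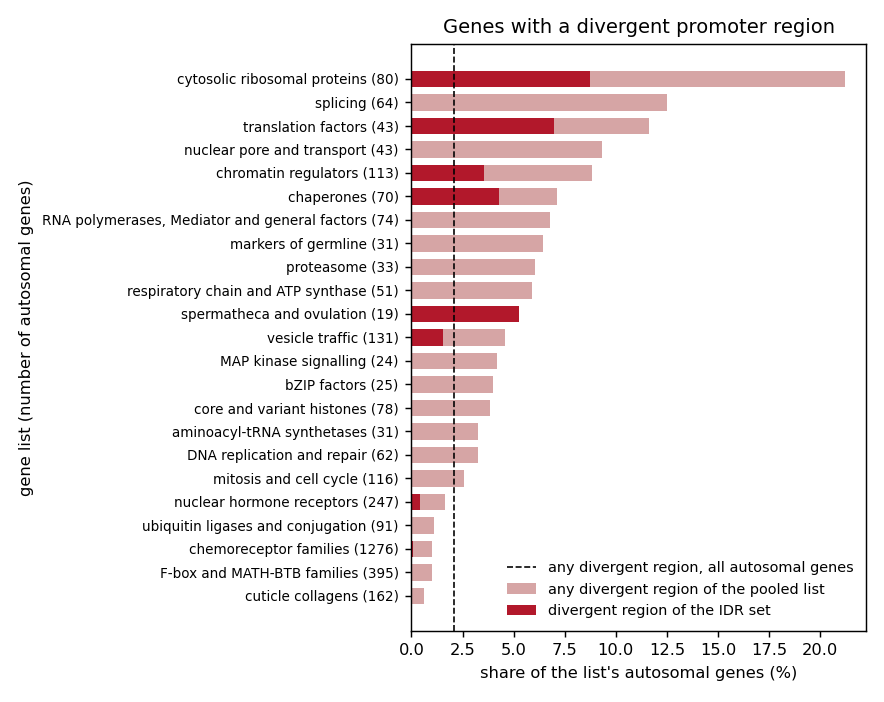
Share of the autosomal genes of each list (%) with a divergent region of the pooled list (pale bars) and of the IDR set (dark bars), for the lists with at least 1 such gene. The dashed line is the share over all autosomal protein-coding genes, 2.07%; ribosomal proteins reach 21.2% and 8.75%.

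Of the remaining regions among the 20 highest, C06B3.7/C06B3.6 had 24.3 in replicate 1, 18.9 in replicate 2 and 47.4 pooled. The region of Y75B8A.23 and tim-1, a homologue of the circadian protein Timeless, had 24.3, 21.7 and 46.8 and overlapped the snRNA gene sls-2.8. That of cap-2, the beta subunit of actin capping protein, and gmps-1, GMP synthase, had 20.8, 19.2 and 40.8. These 3 were among the 248 highest of both replicates, as was lin-53/nra-2 above. Both ska-3, paired with rps-12, and ska-1, paired with Y106G6H.16 (36.2), encode parts of the complex that joins kinetochores to microtubules. The others were srlf-7/C42D4.13 (38.7), scpr-1/gpap-1 (37.5), wip-1/larp-1 (37), ceh-38/malt-1 (37) and F25H2.6/ndk-1 (36.7). Among them larp-1 encodes an RNA-binding protein of the La-related family, malt-1 a paracaspase and ndk-1 a nucleoside diphosphate kinase.

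**Figure D5:**
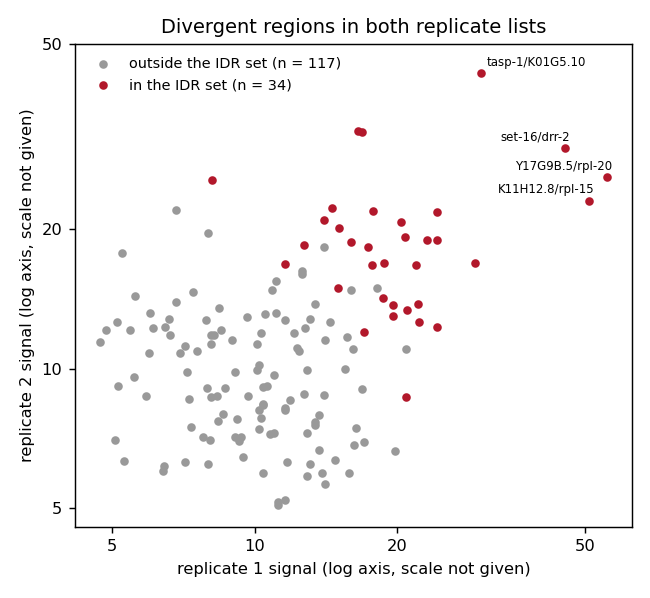
Signal in replicate 1 (horizontal, log axis) and replicate 2 (vertical, log axis) of the 151 divergent regions matched in both lists, each on the authors' own scale; red points are in the IDR set. The 4 regions of highest pooled signal are named, and 34 of the 35 members of the set are shown, since rps-15 had no replicate 1 match.

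Replicate values spread widely below these. Of the 35 members of the IDR set, 3 ranked beyond 1000 in replicate 1 and 8 in replicate 2. The region of spk-1, an SR protein kinase, and rheb-1, a small GTPase of the TOR pathway, had signals of 20.9 in replicate 1 and 8.69 in replicate 2, at ranks 134 and 7802, while nhr-68 was low in replicate 1 and high in replicate 2. A single replicate 1 region matched both regions of spk-1/rheb-1, so it stands behind 2 of the 23 members among the 248 highest of replicate 1. The pairs spk-1/rheb-1, atx-2/ecps-1, ceh-99/srh-70, pfd-1/F01G4.6, asp-12/asp-6 and vps-32.1/icd-1 each held 2 members, so the 180 regions came from 174 gene pairs. With 1 region per pair the IDR share was 19.5%. The highest region outside the set, F01F1.3/F01F1.11, had 12.6 in replicate 1, 16.2 in replicate 2 and 30.9 pooled, and it lay in the shortest gap of all members, 61 bp, next to the lowest region inside it at 31.1.

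The AP-1 site was present at a minority of divergent regions, about as often as at one-directional ones. It was found within 100 bp of the summit in 9 of 180 (5.0%, interval 2.31 to 9.28), against 4.71% of one-directional and 2.02% of other regions, with a background of 2.96% over autosomal regions. At the midpoints of all head-to-head pairs it was 1.43%. In the IDR set 3 of 35 divergent (8.57%), 7 of 63 one-directional (11.1%) and 6 of 95 other regions (6.32%) held one, and these intervals overlap. The difference between divergent and one-directional regions changed sign with the promoter window, at 3.19% against 5.91% with a window of 500 bp upstream to 100 bp downstream, and was 4.05% against 4.71% with summits between both 5' ends only.

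The 3 divergent regions of the IDR set with an AP-1 site were C06B3.7/C06B3.6, with TGACTCA at V 13909614 to 13909620, 49 bp from the summit, Y106G6H.16/ska-1, with a site 40 bp away, and rib-2/tbb-1, with TGACTCA at III 10742633 to 10742639, 22 bp away. rib-2 encodes a heparan sulphate glycosyltransferase and tbb-1 a beta-tubulin. The rib-2/tbb-1 region had 11.6 in replicate 1 and 16.8 in replicate 2. None of the 4 highest divergent regions and none at a ribosomal protein gene held the site in this window, which says only that these letters were absent there.

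The shares of other short motifs were compared in the same way. The GC box was found at 10.6% of divergent regions (interval 6.48 to 16.0), against 4.96% of one-directional and 4.30% of other regions and 5.21% of head-to-head midpoints. The GATA motif, spelled TGATAA, was at 16.1%, against 25.2%, 24.2% and 19.2%, and the TATA box, spelled TATAAA, at 17.8%, against 22.1%, 22.7% and 26.7%. GC content also differs between the classes, as given above, and its part was not tested. The GAGA motif was at 24.4% of divergent regions, against 21.1%, 18.6% and 12.6% at midpoints. Within the IDR set it was less frequent at divergent regions (31.4%) than at one-directional (38.1%) and other ones (47.4%), with overlapping intervals. The E2F motif was at 3.89% (interval 1.58 to 7.85), against 1.49%, 1.01% and 2.39%. CTGCGTCT was at 6.11%, against 6.45%, 3.61% and 2.31%, and CCAAT at 33.3%, against 33.5%, 34.7% and 32.8%. For each of these 7 motifs the intervals of divergent and one-directional regions overlap, and no test of the differences was made. The others searched, CRE, C/EBP, E-box, T-run, ETS and the splice acceptor TTTCAG, were at 0.556% to 68.9% of divergent regions.

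Members near the edge of the promoter window had signals within the range of the others. The 4 just inside it were sly-1/taf-11.3 (993 bp from the farther 5' end, signal 16.6), cls-2/R107.5 (985 bp, 19.7), sma-10/srh-282 (984 bp, 20.3) and ipla-6/mif-4 (982 bp, 32.7). The 4 just outside were taf-4/pqn-59 (1007 bp, 22.4), nduf-2.2/dlc-1 (1008 bp, 22.1), lex-1/tmed-1 (1008 bp, 17.5) and B0496.1/valv-1 (1013 bp, 19.5). Of the 8, ipla-6/mif-4 was in the IDR set. Pairs whose genes stood in the same list had signals below the member median of 20.5: cit-1.2/cit-1.1, which encode cyclin T proteins, 19.9, his-62/his-61 17.7, rsp-1/rsp-2 17.6, rpl-24.1/rps-10 17.4, srh-275/srh-231 17.2 and mex-5/rec-8 17. Standing in the same list does not mean that both genes are alike in sequence, which was not examined. How reads that match several places were placed is not given in the sources used here.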

How the data were processed

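ChIP-seq peak lists of 2 biological replicates were used as deposited by the authors, on build ce11. Per the file headers and file notes, a replicate's list has its peaks and background, called against the same control, the pooled list was called on both replicates, and the IDR set was derived from all 3. Not given in the sources used here are the aligner, the caller, the IDR threshold and the read depth. The signal and the −log10 q-value of each region are the authors' deposited values, and the signal served to describe and rank regions within a list. Regions in the lists used for ranks include background.

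Gene 5' ends came from Ensembl release 115 and sequences from the reference genome of the same build. Summits, windows, matches within 200 bp, motifs on both strands (100 bp to each side), 31 gene lists and exact Clopper-Pearson 95% intervals were computed with Python 3.11.15, pandas 2.3.3 and scipy 1.17.1, and drawn with matplotlib 3.10.9. The counting steps were tested on simulated data. No test was made: there is 1 group, and regions are not replicates.

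The members and lists were chosen with earlier results of these data known. Named genes follow a rule: both nearest genes of the 20 highest members, up to 4 per gene list, IDR members with an AP-1 site, pairs in the same list, the members next to the IDR limit and those next to the window limits. Other genes, among them those of pairs with 2 regions, were chosen after their values were seen. Alternatives were other windows, transcripts' 5' ends, each replicate alone, stricter sets and other matching distances; for the IDR share, each replicate alone and the splits by GC content, place, pair and ribosomal protein genes were added after seeing the data, as were the rank bins and the octamer GTGGAGCG.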

Additional observations from a re-analysis of the deposited data

How the results depend on the processing

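Of 40 recomputed values, 27 stayed within the main value's error or within 1.5 times of a main count and 13 moved. Such values cannot change sign. Some moves follow from the setting itself. A smaller IDR set can only lower the IDR share, and the upper part of the list can only raise the median signal. A wider promoter window can only raise the number of regions. The cause of the other moves was not tested. The IDR share of divergent regions was above those of one-directional and other regions in 12 of 12 alternatives, and the AP-1 share was above that of one-directional regions in 6 of 8 and below it in the other 2 (3.19% against 5.91% and 4.05% against 4.71%). The IDR share was 8.33% for GC at or below the autosomal median and 7.78% for the regions of the set above its median signal. A single replicate has no IDR set, so its 248 highest regions stood in for it among those 12 alternatives. They held 22 of 163 divergent regions among the 3527 highest of replicate 1 (13.5%) and 24 of 144 of replicate 2 (16.7%). These were regions of each replicate's own list, not the 180 members. The number of divergent regions was 322 with 2000 bp upstream and 94 with 500 bp, and the share of head-to-head pairs with a region 9.45% and 3.90%, or 5.63% to 6.42% for each replicate alone. Median signal was 24.6 above the median of the pooled list and 12.6 to 13.1 in each replicate alone, where the scale is the replicate's own. The share above the median rank of both replicates was 51.1% for matches within 100 bp. Depth is unknown, so what it limits could not be given. No paired analysis was possible because there is 1 group and no result comes from a test.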

Other observations

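Some letters recurred at the divergent regions of the IDR set. Of the 32896 octamers, each counted with its reverse complement, 5 were found in at least 5 of the 35 summit windows and in under 2% of head-to-head midpoints. They were chosen on these same windows, so their counts are descriptions without a test. CGCTCCAC, the reverse complement of GTGGAGCG, stood in 7 of 35 windows and at 1.13% of midpoints. Outside the IDR set, which chose it, it was in 5 of 145 divergent (3.45%, interval 1.13 to 7.86), 2 of 743 one-directional (0.269%) and 5 of 1789 other regions (0.279%). The divergent interval overlaps that of the midpoints, 0.748 to 1.64. Within the set it was in 2 of 63 one-directional (3.17%) and 1 of 95 other regions (1.05%). GCTCCACC (5 of 35) and CGGTGGAG (5 of 35) can share most of its letters. CTACGCAG and ACACGCTC were also in 5 of 35. In K11H12.8/rpl-15 and tasp-1/K01G5.10 ACACGCTC overlaps the GTGGAGCG match, so its count is not separate from that of GTGGAGCG. Counts over all 180 divergent, 806 one-directional and 1884 other regions, those 5 windows included, were 8, 0 and 4 for CTACGCAG. They were 6, 3 and 2 for ACACGCTC, 7, 4 and 11 for GCTCCACC and 6, 5 and 12 for CGGTGGAG.

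The 7 windows with GTGGAGCG were those of rpl-20, rpl-15, rpl-12, rps-15, tasp-1/K01G5.10, tiar-2/vps-2 and vha-1/sqv-3, so 4 of the 7 ribosomal protein regions of the set held it. Outside the set it was at rps-1/ifet-1 (27.1), nduc-2/Y71H2AM.20, spin-4/rsp-3, K10D2.5/prp-19 and Y48A6B.3/fipr-17. Its centre lay 1 to 71 bp from the summit in the 12 regions. In rps-1 the signal was 5.25 in replicate 1 and 17.7 in replicate 2. All 12 windows but tiar-2/vps-2, at 29.9%, had a GC content above the autosomal median of 34.8%, and the part of base composition was not tested.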
